A study of Mus musculus with 4 samples.

Results

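The JAK kinases and STAT factors carry cytokine signals from receptors at the cell surface to genes in the nucleus. All 4 mouse JAK kinases (Jak1, Jak2, Jak3 and Tyk2) and 5 of the 7 STAT genes (Stat3, Stat4, Stat5a, Stat5b and Stat6) were read here in splenic regulatory T (Treg) cells, 9 of the 24087 genes in the table. They were taken from the table by gene symbol. CD3+CD4+YFP+ cells were sorted from the spleens of unchallenged C57BL/6 mice of the genotype Foxp3Cre-YFPSetd2f/f (KO) or of littermates of the genotype Foxp3Cre-YFPSetd2f/+ (CTRL), and 2 libraries were made of each (CTRL 1 and CTRL 2 against KO 1 and KO 2). Mice in the study were 6 to 12 weeks old unless stated otherwise. Setd2 encodes the enzyme that trimethylates lysine 36 of histone H3. Cre and YFP are driven by Foxp3, so the Setd2 alleles are recombined in cells that express or have expressed Foxp3. All groups carry the Cre-YFP allele, and CTRL cells lose 1 of their Setd2 alleles rather than none. Each library was made from the cells of 2 mice combined, so differences between single mice cannot be seen. Values are FPKM (fragments per kilobase of gene and per size of the library). Comparisons of the same gene between libraries do not depend on its length. Comparisons between genes, and sums or shares over genes, rest on the gene lengths used, which were not given.

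JAK kinases sit on the inner tails of cytokine receptors and, once a cytokine brings the receptor chains together, phosphorylate the receptor and the STAT factors that dock on it. Phosphorylated STAT factors pair up, enter the nucleus and bind sites with the palindrome TTCNNNGAA or close variants. In Treg cells, IL-2 acts through JAK1 and JAK3 on STAT5A and STAT5B, which sustain Foxp3, while IL-6, IL-10 and IL-21 act mainly through STAT3, IL-12 through STAT4 and IL-4 through STAT6. Only RNA was measured in these libraries, and phosphorylation, which controls these proteins, was not. In separate flow cytometry, the paper reports that phosphorylated STAT5 did not differ between the genotypes. Those were Helios+ Treg cells of spleen or intestine stimulated with IL-2.

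Stat5b, Stat5a and Stat3 lie side by side within 158810 bases of chromosome 11 (GRCm38). Stat5b (100780731 to 100850724) and Stat5a (100859351 to 100885169) are read away from each other, from start sites 8626 bases apart. The last 72 bases of Stat5a overlap the end of Stat3 (100885098 to 100939540) on the opposite strand. Because Stat5a and Stat5b gave the most positive and the most negative difference of the 9 genes, the start regions from which they are read are shown. Each is a RefSeq window (GRCm38.p6) from 250 bases before to 50 bases after an annotated start, 5′ to 3′ in the direction of reading, with CpG dinucleotides in capitals. The Stat5b window shown is that of its upstream start, chr11:100850532-100850831 on the minus strand. The windows of 2 Stat5a starts are chr11:100859406-100859705 and chr11:100860234-100860533, both on the plus strand.
Stat5b, upstream start: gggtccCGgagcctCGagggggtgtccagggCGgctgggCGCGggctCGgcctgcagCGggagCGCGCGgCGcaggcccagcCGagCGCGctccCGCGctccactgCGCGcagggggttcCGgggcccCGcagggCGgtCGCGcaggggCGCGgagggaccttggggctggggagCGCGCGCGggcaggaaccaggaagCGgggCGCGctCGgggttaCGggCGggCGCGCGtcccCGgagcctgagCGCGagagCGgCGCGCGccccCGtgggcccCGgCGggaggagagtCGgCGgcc
Stat5a, upstream start: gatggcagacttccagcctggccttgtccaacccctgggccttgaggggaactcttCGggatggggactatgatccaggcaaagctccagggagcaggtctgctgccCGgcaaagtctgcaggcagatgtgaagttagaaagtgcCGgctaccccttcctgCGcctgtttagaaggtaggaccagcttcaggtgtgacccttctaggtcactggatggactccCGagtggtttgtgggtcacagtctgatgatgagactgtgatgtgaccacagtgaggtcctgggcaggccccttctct
Stat5a, downstream start: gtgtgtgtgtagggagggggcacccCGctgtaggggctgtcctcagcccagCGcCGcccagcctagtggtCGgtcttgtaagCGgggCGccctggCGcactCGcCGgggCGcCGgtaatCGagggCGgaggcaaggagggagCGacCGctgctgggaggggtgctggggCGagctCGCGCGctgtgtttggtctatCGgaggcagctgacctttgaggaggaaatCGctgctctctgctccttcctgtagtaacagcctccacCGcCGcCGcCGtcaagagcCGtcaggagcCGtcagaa
The upstream Stat5b window held 50 CpG at 82.7% GC, and a window at a second annotated Stat5b start inside the gene (chr11:100822521-100822820), not shown, held 7 CpG at 47.3% GC. The upstream Stat5a window held 5 CpG at 57.7% GC and the downstream one 27 CpG at 67.7% GC, whereas the median of all 32851 windows was 7 CpG at 52.67% GC. The letters TTCNNNGAA, which read the same on both strands, occurred in 8.3% of all windows and in 0 of the 12 windows that matched the 9 genes. A match or its absence describes only these 300 bases.

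The least number of reads that could give the deposited values ran from 29988267 to 32686764 per library. From 3883 reads (Stat5a in CTRL 1) to 27648 reads (Jak1) stood behind a value of the 9 genes, a counting error of at most 1.6%, so the spread between libraries and not depth set the precision. CTRL 1 stood apart with 19100 genes above 0, against 15913 to 16410 in the other libraries. Setd2 stood at 23.4 and 25.3 FPKM in the CTRL libraries and at 21.3 and 19.5 FPKM in the KO libraries, a log2 fold change of -0.24 that did not pass the threshold (limma adjusted p 0.0970), and reads over its floxed exons were not analysed here. The 9 Treg markers summed to 1701 and 1768 FPKM in CTRL and to 1859 and 1813 FPKM in KO, both KO sums being higher. Ctla4 weighed most in these sums as the highest of the 9 markers in every library. Its values overlapped between the groups, at 546 (CTRL 1), 542 (CTRL 2), 656 (KO 1) and 534 (KO 2). The order of the sums therefore does not show more Treg transcripts in KO across the list. The part of Treg marker levels in the differences given here was not tested. Of the 9 markers, 5 had a log2 fold change above 0, and 1 passed the threshold as higher, beside 5.1% of all genes tested. Foxp3 (log2 fold change -0.17) and Il2ra (-0.35) went the other way, with both KO values below both CTRL values, and did not pass. T cell markers summed to between 2142 and 2255 FPKM, with the groups overlapping. Of these 8 markers, 3 had a log2 fold change above 0. Zap70 passed the threshold as higher (0.31, limma adjusted p 0.0395), and 0 passed as lower. Markers of other cells were present in every library. The 6 CD8 T cell and NK markers summed to between 34.2 and 40.3 FPKM, with Cd8a and Ncr1 under 1 FPKM and the other 4 above, the B cell markers to between 22.5 and 43.4 FPKM and the erythroid markers to between 4.16 and 38.5 FPKM. Myeloid markers summed to 236.3 and 143.9 FPKM in CTRL and to 299.7 and 115.8 FPKM in KO. The groups overlapped for each of these lists, and 0 markers were at 0 in all libraries. In bulk libraries of this kind, fewer cells of a type and less RNA per cell cannot be told apart.

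All 9 genes were expressed at high levels, between the 79.0 and the 96.2 percentile of the 11399 genes tested. These percentiles and the order below rest on the gene lengths behind the FPKM values, which were not given. Jak1, the kinase shared by most receptors of the family, was the highest in both genotypes, with a mean of 149.0 ± 2.29 FPKM in CTRL and 136.9 ± 0.831 FPKM in KO (SD, n = 2). It was followed in both by Jak3, the kinase bound to the common gamma chain, then by Stat6 and Stat3, and none of these neighbours overlapped in their ranges. Below Stat3 the order depended on the genotype. In CTRL it ran Stat5b, Jak2, Stat4, Tyk2 and Stat5a, and only the ranges of Jak2 and Stat4 overlapped. In KO, the ranges of Jak2 and Stat5b overlapped, as did those of Stat4 with Tyk2 and of Tyk2 with Stat5a. Within each KO library Tyk2 was above Stat5a. The order of Jak2 and Stat5b and that of Stat4 and Tyk2 turned between the KO libraries and was not resolved. The distance between Stat5b and Stat5a in FPKM was wider in CTRL, with a lowest Stat5b value of 54.9 against a highest Stat5a value of 33.0, than in KO, with 46.9 against 39.2.

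**Figure D1:**
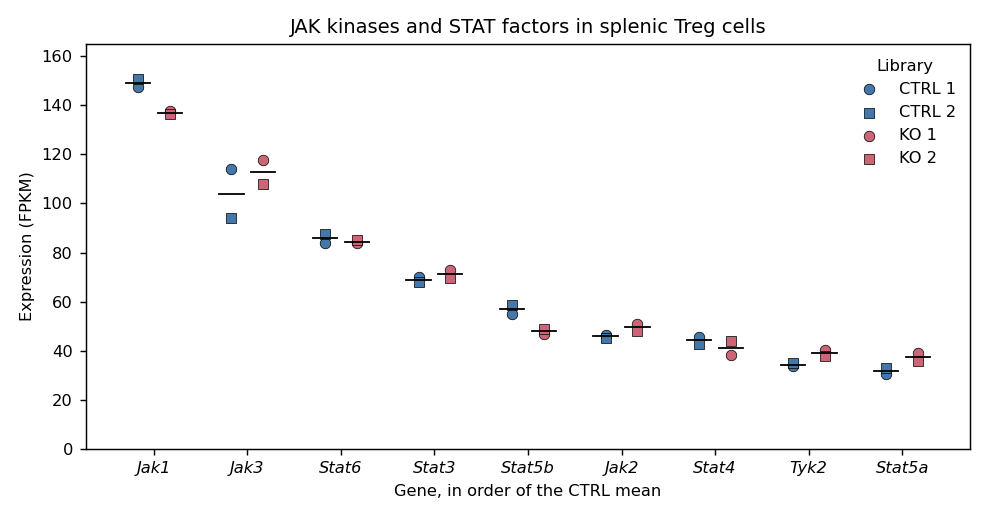
Expression of the 9 genes in each library, in FPKM on a linear axis from 0, ordered by the CTRL mean, with circles for replicate 1, squares for replicate 2 and a bar at the mean of each group. Jak1 is highest in both genotypes at 136.3 to 150.6 FPKM, Stat5b is at 54.9 and 58.8 in CTRL and 46.9 and 48.8 in KO, Stat5a is at 30.4 and 33.0 in CTRL and 39.2 and 36.0 in KO, and the groups overlap for Jak3, Stat3, Stat4 and Stat6.

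To ask whether these genes differ between Setd2-deficient and Setd2-sufficient Treg cells, KO was compared with CTRL by limma on log2(FPKM + 1), with p adjusted by the Benjamini-Hochberg method over all 11399 genes and a threshold of adjusted p under 0.05. None of the 9 genes passed, with 0 higher and 0 lower, beside 5.1% of all genes tested called higher, 4.65% lower and 9.75% in either direction. With only 9 genes, 0 calls cannot be told apart from these shares. At an unadjusted p under 0.05 there were 3 genes, Stat5a and Tyk2 on the higher side and Stat5b on the lower side, against 34.7% of all genes. The libraries of the groups did not overlap for 5 of the 9, with Jak2, Tyk2 and Stat5a above and Jak1 and Stat5b below, against 64.5% of all genes. Both shares of the 9 were therefore near or under the background. The differences were small. Their median size was 0.12 on the log2 scale, compared with 0.16 over all genes tested. The 9 highly expressed genes had a median standard error of 0.061, compared with 0.087 over all genes tested. The median sizes are therefore not from like sets. The 95% intervals of the 9 genes together spanned -0.40 to 0.43. These intervals are not adjusted for multiple tests.

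**Figure D2:**
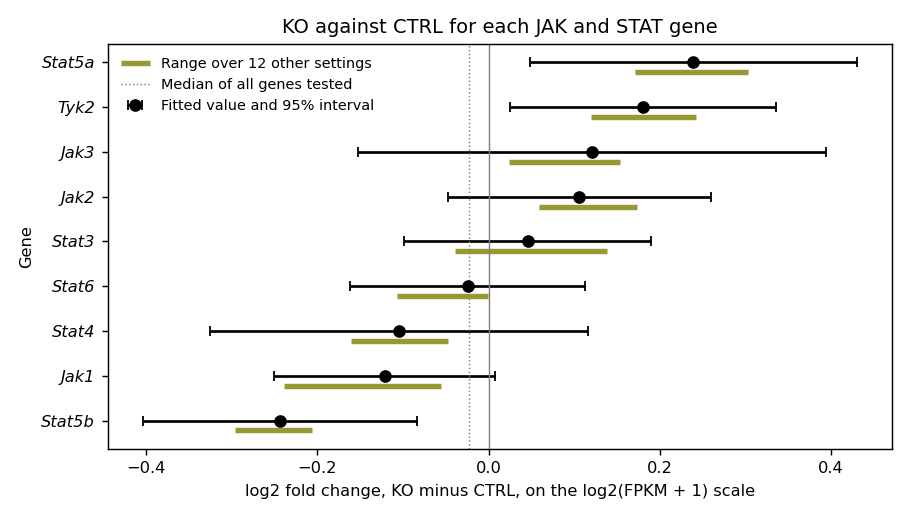
Log2 fold change of each gene, KO minus CTRL, on the log2(FPKM + 1) scale, with points for the fitted value, whiskers for the 95% interval and thick bars for the range over 12 other settings of the fit. The intervals of Stat5a (0.048 to 0.43), Tyk2 (0.025 to 0.34) and Stat5b (-0.40 to -0.084) lie to one side of 0 before adjustment for multiple tests, and those of the other 6 genes include 0.

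Among the kinases, Jak1 (chromosome 4, 101152367 to 101265282) stood at 147.4 and 150.6 FPKM in CTRL compared with 137.5 and 136.3 FPKM in KO. Both KO values were under both CTRL values, and the mean differed by -8.13%, a log2 fold change of -0.12 (standard error 0.050, limma adjusted p 0.162). Under quantile normalization its log2 fold change was -0.24 and the adjusted p 0.0498, just past the threshold, a setting in which 8.8% of all genes passed. With the trend of each library with exon length removed it was -0.056.

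Tyk2 (chromosome 9, 21104068 to 21131243), which serves the interferon and IL-12 receptors, stood at 33.7 and 34.9 FPKM in CTRL compared with 40.1 and 37.9 FPKM in KO. The groups were apart, and the mean was 13.7% higher in KO, at a log2 fold change of 0.18 (standard error 0.061, limma adjusted p 0.110). Over the 12 other settings this value ran from 0.12 to 0.24 and the adjusted p from 0.0708 to 0.197. Tyk2 against Jak1 within a library, a ratio that no rescaling of a library changes, was 0.229 and 0.231 in CTRL and 0.292 and 0.278 in KO, so the ratio differed between the groups by more than between the libraries of a group. This ratio was chosen after its values were seen.

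Jak2 (chromosome 19, 29251828 to 29313080), the kinase of the interferon gamma, IL-3 and IL-12 receptors, stood at 46.6 and 45.2 FPKM in CTRL compared with 51.0 and 47.9 FPKM in KO. Its KO values were again both above the CTRL values, for a log2 fold change of 0.11 (standard error 0.060, limma adjusted p 0.270). Jak3 (chromosome 8, 71676296 to 71690575) stood at 113.9 and 94.1 FPKM in CTRL compared with 117.7 and 107.8 FPKM in KO. Here the groups overlapped, and the first library was higher than the second in each genotype by more than the genotypes differed. The difference of Jak3 was 0.12 (standard error 0.11, limma adjusted p 0.470), was -0.016 without CTRL 2 and 0.26 without CTRL 1. Myeloid markers were also higher in the first library of each genotype, and their part in the Jak3 values was not tested. Insl3 lies inside the Jak3 gene on the same strand and shares 404 of its exon bases, so reads there could be counted for either gene.

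Summed over the 4 kinases, expression was 341.6 and 324.8 FPKM in CTRL and 346.3 and 329.9 FPKM in KO, and the groups overlapped. The share of Jak1 in that sum, also chosen after its values were seen, was 43.2% and 46.4% in CTRL and 39.7% and 41.3% in KO. Jak3 against Jak1, the pair that works together at the IL-2 receptor, was 0.773 and 0.625 in CTRL and 0.856 and 0.791 in KO. Neither of these within-library ratios overlapped between the groups, but 2 against 2 libraries cannot give an exact permutation p below 0.33, which was the value for both (two-sided).

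Of the STAT factors, Stat3 (chromosome 11, 100885098 to 100939540), the factor downstream of IL-6, IL-10 and IL-21, stood at 70.2 and 67.8 FPKM in CTRL compared with 72.9 and 69.6 FPKM in KO. The groups overlapped, and the log2 fold change was 0.046, with a 95% interval from -0.099 to 0.19 (limma adjusted p 0.607). Its sign turned under quantile normalization, to -0.040.

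Stat6 (chromosome 10, 127642986 to 127660957), the factor downstream of IL-4 and IL-13, was the most even of the 9, at 84.0 and 87.6 FPKM in CTRL and 83.8 and 84.9 FPKM in KO. Its mean differed by -1.71%, with a 95% interval of the log2 fold change from -0.16 to 0.11. Stat4 (chromosome 1, 51987148 to 52107189), the factor downstream of IL-12, stood at 45.7 and 42.6 FPKM in CTRL compared with 38.3 and 43.9 FPKM in KO. KO 1 was the lowest library and KO 2 lay between the CTRL libraries, so that the difference of -0.10 (standard error 0.086, limma adjusted p 0.435) rested on KO 1 and was -0.0085 without it. Of the 100-base stretches of Stat4 transcripts, 24.1% also occur in another annotated gene, and the handling of such reads was not stated.

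Stat5a and Stat5b encode closely related factors downstream of IL-2, IL-7 and IL-15, and differed between the groups in opposite directions. Stat5a stood at 30.4 and 33.0 FPKM in CTRL compared with 39.2 and 36.0 FPKM in KO, both KO values above both CTRL values. Its mean was 31.7 ± 1.80 FPKM in CTRL and 37.6 ± 2.30 FPKM in KO (SD, n = 2 per group), 18.6% higher, for a log2 fold change of 0.24 (standard error 0.075, limma adjusted p 0.0952).

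Stat5b stood at 54.9 and 58.8 FPKM in CTRL compared with 46.9 and 48.8 FPKM in KO, both KO values below both CTRL values. The mean was 56.8 ± 2.76 FPKM in CTRL and 47.8 ± 1.36 FPKM in KO (SD, n = 2 per group), a difference of -15.8%, for a log2 fold change of -0.24 (standard error 0.062, limma adjusted p 0.0670). With limma-voom on the reads recovered from the FPKM values, which called 16.6% of all genes, Stat5b passed the threshold at a log2 fold change of -0.25 (adjusted p 0.0424) and no other of the 9 genes did. The adjusted p of Stat5b ranged from 0.0424 to 0.117 over the 12 other settings and from 0.152 to 0.223 when 1 library was left out, and its sign was negative in each.

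**Figure D3:**
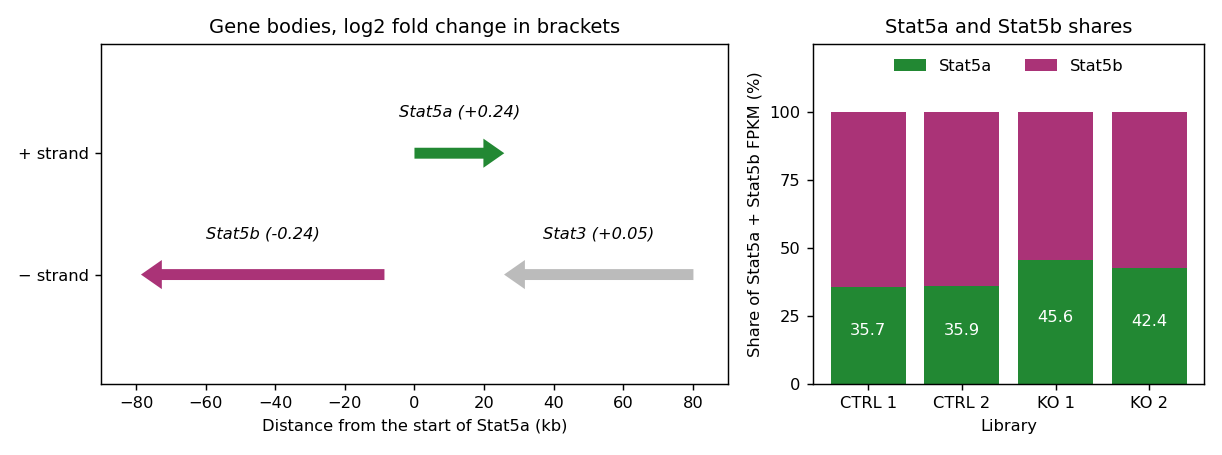
Left, the Stat5b, Stat5a and Stat3 genes drawn to scale by distance from the start of Stat5a in kb, with arrows in the direction of reading on the plus or minus strand and the log2 fold change in brackets. Right, Stat5a and Stat5b as percent of their summed FPKM in each library, with the Stat5a share of 35.7 and 35.9 in CTRL and 45.6 and 42.4 in KO written in the bars.

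The makeup of the pair therefore differed as well. Stat5a made up 35.7% and 35.9% of their summed FPKM in CTRL and 45.6% and 42.4% in KO. The means were 35.8 ± 0.186% and 44.0 ± 2.21% (SD, n = 2 per group), a difference of 8.20 percentage points, which stayed between 6.63 and 9.76 when any 1 library was left out. All that an exact permutation of 2 against 2 libraries can give is p 0.33 (two-sided), the value here. Stat5b exceeded Stat5a by 1.80-fold and 1.78-fold in CTRL and by 1.19-fold and 1.36-fold in KO. Being taken within a library, these values do not move with its scaling, but their level depends on the gene lengths used. The gap between the log2 fold changes of Stat5a and Stat5b was 0.48, and from 0.42 to 0.51 over the 12 other settings. These included removal of the trends with exon length and with GC content. Settings that change only the filter, the variance model or the replicate block cannot move the gap, and rescaling a library hardly can. When any 1 library was left out the gap ran from 0.39 to 0.57.

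The summed FPKM of Stat5a and Stat5b was 85.3 and 91.8 in CTRL and 86.1 and 84.8 in KO, and the groups overlapped. The sequences of both genes are similar, and 2.85% of the 100-base stretches of Stat5a transcripts also occur in Stat5b and 5.18% of those of Stat5b in Stat5a, so that a small part of the reads could be assigned to either gene or dropped. Whether strand was used in the counting was not stated, which touches the 72 bases that Stat5a shares with Stat3. Stat3 against the sum of Stat5a and Stat5b was 0.823 and 0.739 in CTRL and 0.846 and 0.821 in KO, overlapping between the groups. The 5 STAT genes together were at 285.2 and 289.8 FPKM in CTRL compared with 281.0 and 283.2 FPKM in KO, and relative to the 4 kinases at 0.835 and 0.892 in CTRL and 0.812 and 0.858 in KO.

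Stat2, a factor of type I interferon signalling that is not among the 9 genes, stood at 28.4 and 28.2 FPKM in CTRL compared with 24.7 and 27.4 FPKM in KO. Its KO values were both below its CTRL values, and the log2 fold change was -0.12 (limma adjusted p 0.304).

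Upstream of the kinases, 22 of 26 receptor subunits could be tested, and Il12rb2, Il23r, Lifr and Osmr were under 1 FPKM in every library. There were 3 higher and 2 lower subunits, beside 5.1% and 4.65% of all genes tested, and the median log2 fold change of the list was 0.061, compared with -0.022 over all genes tested. Il3ra, the ligand-binding chain of the IL-3 receptor, rose from 24.1 and 21.7 to 39.8 and 40.8 FPKM (log2 fold change 0.79, limma adjusted p 0.0299). Il12rb1, the subunit of the IL-12 and IL-23 receptors that binds TYK2, rose from 22.9 and 21.9 to 34.1 and 35.2 FPKM (0.61, limma adjusted p 0.0306). Il10ra, the ligand-binding chain of the IL-10 receptor and a partner of JAK1, rose from 31.7 and 33.2 to 40.7 and 41.7 FPKM (0.33, limma adjusted p 0.0399). The lower subunits were Il6st, which encodes gp130, the signalling chain of the IL-6 family and a partner of JAK1, JAK2 and TYK2 (42.0 and 48.0 to 31.2 and 34.01 FPKM, -0.45, limma adjusted p 0.0441), and Il7r (67.1 and 61.6 to 50.7 and 49.99 FPKM, -0.35, limma adjusted p 0.0421). Both calls were lost without the variance trend (adjusted p 0.0632 for each) and with the GC trend removed (0.0535 for Il6st and 0.0519 for Il7r, whose log2 fold change was then -0.23), and that of Il6st also with the exon length trend removed (0.0690). The call of Il10ra was lost without the variance trend (adjusted p 0.0580). Csf2ra had a log2 fold change of 0.45 and did not pass (limma adjusted p 0.123), but did with the replicate block (0.0230). The 3 chains of the IL-2 receptor, named here after their values were seen, did not pass either. Il2ra stood at 123.3 and 148.4 FPKM in CTRL compared with 95.4 and 117.3 FPKM in KO (-0.35, limma adjusted p 0.138), Il2rb had a log2 fold change of 0.18 and Il2rg, the common gamma chain that holds JAK3, of 0.086.

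Among 20 negative regulators of JAK and STAT proteins, 1 was higher and 0 were lower, beside 5.1% and 4.65% of all genes tested. The median was -0.047. Socs3, which binds gp130 and blocks JAK1, JAK2 and TYK2 and is itself induced by STAT3, rose from 57.9 and 55.7 FPKM to 108.4 and 88.4 FPKM (log2 fold change 0.78, limma adjusted p 0.0351). Socs4 stood at 14.6 and 14.5 FPKM in CTRL compared with 8.15 and 10.8 FPKM in KO and did not pass (-0.58, limma adjusted p 0.0553), although it did under 4 of the 12 other settings, with adjusted p from 0.0240 with the replicate block to 0.0446 with robust eBayes. Of 10 adaptors, coactivators and Pim kinases, 0 were higher and 0 lower, beside the same 5.1% and 4.65%, at a median of -0.013. Pim3 had the log2 fold change of greatest size, 0.66 (limma adjusted p 0.0623). It passed with the replicate block (0.0344), with limma-voom (0.0358) and, barely, with the filter on mean FPKM above 5.

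Downstream, genes known as targets of each factor were counted. Of 12 STAT5 targets, Gzmb, which encodes granzyme B, and Socs3 rose, and Bcl2, which encodes a survival protein, fell. Gzmb went from 17.0 and 14.6 to 36.6 and 47.2 FPKM (log2 fold change 1.34, limma adjusted p 0.0306) and Bcl2 from 36.2 and 35.3 to 19.4 and 21.9 FPKM (-0.77, limma adjusted p 0.0306). With 2 higher and 1 lower, beside 5.1% and 4.65% of all genes tested, the median of the list was 0.016. Ccr8, a chemokine receptor of the list, had a log2 fold change of 0.62 and did not pass (limma adjusted p 0.0615), but did with the replicate block (0.0153), limma-voom (0.0391) and a mean FPKM above 5 required (0.0489).

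The lists were chosen with earlier results of these data known, so the counts and medians describe them and are no test of enrichment. Of 9 STAT3 targets, 5 rose and 1 fell, beside 5.1% and 4.65% of all genes tested, with a median of 0.42. They were Il10 (25.2 and 23.4 to 48.6 and 40.6 FPKM, log2 fold change 0.84, limma adjusted p 0.0346), Socs3, the transcription factors Batf (79.7 and 72.9 to 107.6 and 108.2 FPKM, 0.50) and Hif1a (86.5 and 80.3 to 119.3 and 109.3 FPKM, 0.45), and Bcl3 (41.2 and 39.0 to 53.7 and 53.9 FPKM, 0.42), which is named beyond the rule for named genes. Il6st was the one that fell. The call of Hif1a was lost without the variance trend (adjusted p 0.0535). Stat3 itself differed by 0.046 on the same scale. Il21, at 0.432 to 1.52 FPKM over the libraries, had a difference of 0.24 with overlapping groups. Socs3, Batf, Hif1a and Il10 have regulators other than STAT3, and Socs3 also stands in the STAT5 list and among the negative regulators.

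Of 7 STAT4 targets, 5 could be tested and 0 passed, beside 9.75% of all genes tested, at a median of 0.14. Il18r1, a chain of the IL-18 receptor, stood at 44.0 and 36.4 FPKM in CTRL compared with 28.2 and 33.6 FPKM in KO (-0.37, limma adjusted p 0.114). None of the 4 STAT6 targets passed, beside the same 9.75%, also at a median of 0.14. Il4 stood at 1.63 and 0.992 FPKM in CTRL compared with 1.44 and 2.11 FPKM in KO. Over all pathway lists with each gene taken once, the 9 JAK and STAT genes included, 9 of 76 genes tested were higher and 3 lower, beside 5.1% and 4.65% of all genes tested, at a median of 0.052. With any 1 library left out, or with all genes above 0 tested, 0 of the pathway genes passed in either direction. The called genes were thus receptor subunits, a SOCS inhibitor and target genes. None was among the 9 JAK and STAT genes, too few to set 0 calls apart from the 9.75% called over all genes tested.

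**Figure D4:**
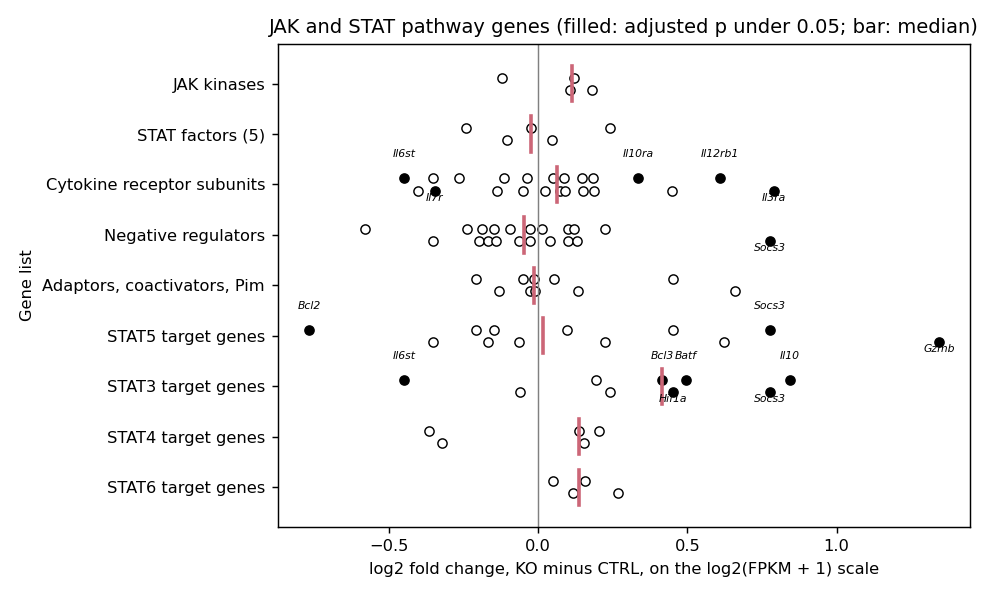
Log2 fold changes, KO minus CTRL on the log2(FPKM + 1) scale, of the tested genes of each list, with filled points for genes past the threshold, open points for the others and a red bar at the median of each list. The 4 JAK kinases and 5 STAT factors lie between -0.24 and 0.24 with no filled point, and the STAT3 target genes have a median of 0.42. The lists were chosen with earlier results of these data known.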

How the data were processed

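Sorted splenic Treg cells were lysed in Trizol, and mRNA was purified on oligo(dT) beads and read as pairs of 150 bp. Per the submitters' processing notes, FastQC, HISAT2 (2.2.1), featureCounts (2.0.1) and edgeR (3.34.0) were used with mm10. The deposited values are FPKM made by the authors; how strand and multi-mapped reads were handled, which gene lengths were used and from which annotation was not given in the sources used here. Control columns named WT with a number were read as the CTRL libraries of that number.

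Positions and overlaps came from GENCODE vM21, which annotated 24021 of 24087 genes. Of 19888 genes above 0, 99.995% were whole multiples of a smallest step (within 0.01 reads), which gave the least reads per value. KO was compared with CTRL in limma (3.58.1, R 4.3.3; lmFit, eBayes with trend, two-sided) on log2(FPKM + 1), a scale that understates changes of low genes, over genes with at least 1 FPKM in at least 2 libraries. The procedure was also run on simulated data with a fixed spread between replicates, which does not bear on single calls here. The members and lists were chosen with earlier results of these data known. Named were the 9 genes, Stat2, Setd2, up to 4 called genes in each direction per list plus the uncalled gene of greatest fold change, and called genomic neighbours; 1 further gene is not reported here and remains in the counts. Python 3.11.15, pandas 2.3.3 and numpy 2.4.6 were used. The alternatives were another pseudocount, 2 other filters, 3 other scalings, 2 other variance models, a replicate block, limma-voom on recovered reads, removal of length or GC trends, and leaving out each library.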

Additional observations from a re-analysis of the deposited data

How the results depend on the processing

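Of 108 values of the 9 genes under 12 other settings, 105 kept their direction and their side of the threshold, as did 34 of 36 values with 1 library left out. Jak1 newly passed under quantile normalization (log2 fold change -0.24, adjusted p 0.0498) and Stat5b with limma-voom (-0.25, adjusted p 0.0424), so each of these settings counted 1 lower gene among the 9. Stat3 reversed under quantile normalization (-0.040). With 1 library left out the sign turned for Jak3 (range -0.016, without CTRL 2, to 0.26), Stat6 (-0.055 to 0.0064, without CTRL 2), Il21 (-0.078, without KO 1, and -0.020, without CTRL 2, to 0.56), the sum of Stat5a and Stat5b (-6.33 to 0.117 FPKM, without CTRL 2) and the sum of the kinases (-3.48, without CTRL 2, and -3.27, without KO 1, to 13.3 FPKM); the cause was not tested. With all genes above 0 tested, 0 genes were higher and 0 lower, although 4463 had an unadjusted p under 0.05, and 0 pathway genes passed in either direction. Higher genes numbered 315 without the variance trend, and lower genes 1027 with limma-voom. Lower pathway genes numbered 5 with mean FPKM above 5, with robust eBayes and with limma-voom, and 1 without the variance trend and with the GC trend removed. With 1 library left out, 0 to 1 genes were higher and 0 to 1 lower, and 0 to 0 pathway genes in either direction. Of all calls, 52.3% were higher ones, and 60.2% with median-ratio scaling and 46.8% with the same sum of FPKM.

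The replicate numbers share only a number, since the labels tie none to a litter or day. Deviations of same-numbered libraries correlated at 0.342 (Pearson) and 0.055 (Spearman) across genes. With the replicate block, 968 genes were higher and 805 lower, 8 pathway genes were lower, and 0 of the 9 genes passed (Stat5b adjusted p 0.056).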

Other observations

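The genes beside the JAK and STAT genes on the chromosome were also read. Of 13 such neighbours that are not among the 9 genes, 9 could be tested and 1 passed the threshold, beside 9.75% of all genes tested. This was Insl6, a gene of the relaxin family that lies 8263 bases from Jak2, which rose from 8.59 and 10.4 FPKM to 15.9 and 13.9 FPKM (log2 fold change 0.60, limma adjusted p 0.0434). The call was lost with all genes above 0 tested (adjusted p 0.104), with limma-voom (0.0711), with the exon length trend removed (0.0561), without the variance trend (0.0578) and with any 1 library left out. Tyk2 lies between Raver1 (log2 fold change 0.28, limma adjusted p 0.0921) and Cdc37 (0.19, limma adjusted p 0.147), which encodes a kinase-specific co-chaperone of HSP90. Neither passed. For both genes the KO values were above the CTRL values, as for Tyk2, while the groups did not overlap for 64.5% of all genes tested. Insl3, inside Jak3, stood at 8.72 and 7.23 FPKM in CTRL compared with 4.63 and 5.76 FPKM in KO (-0.54, limma adjusted p 0.0656), whereas the groups overlapped for Jak3. Ghdc, on the far side of Stat5b from Stat5a, had a log2 fold change of 0.22 (limma adjusted p 0.164), of the opposite sign to Stat5b. Neighbours that did not pass were named after their values were seen.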
